A study of Mus musculus with 6 samples.

Results

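The interleukin-1 (IL-1) family alarmins and their receptors were described in the dorsal neck skin of YAP2-5SA-∆C transgenic (TG) mice and wild type (WT) littermates. The set held 9 genes: the cytokines *Il33*, *Il1a*, *Il1b* and *Il18*, the receptor antagonist *Il1rn*, the receptor chains *Il1rl1*, *Il1r1* and *Il1rap*, and the decoy receptor *Il1r2*. They were found as the rows of the count table whose Ensembl identifier carries these names in GENCODE M21, and all 9 were present among the 26579 genes of the table and passed the filter on low counts (a scaled count, CPM, of 1 or more in 3 libraries), as did 15102 genes in all. CPM is the count of a gene set against its library's total, so that libraries of unequal depth can be compared. The genes were chosen by their behaviour in the comparison of TG with WT, so their fold changes and calls in that comparison are descriptions and not tests of the set.

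The study asked how gene expression in the skin changes when YAP is active in the epidermis. RNA was sequenced from whole-skin punch biopsies of 3 WT and 3 TG female mice, 1 library per mouse, at 33 days of age. TG mice carry a transgene that overproduces a mildly activated YAP mutant in basal keratinocytes, and WT mice are littermates without it. The transgene acts in 1 cell type of the epidermis, whereas the libraries hold RNA of every cell type of the biopsy, so more cells of a type and more RNA per cell cannot be told apart.

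Alarmins are cytokines that keratinocytes and other barrier cells hold ready and release on damage. IL-1α and IL-1β signal through IL1R1, and IL-33 through ST2, the product of *Il1rl1*. Both receptors recruit the shared accessory chain IL1RAP, and their signal runs through MYD88 and IRAK kinases to NF-κB. IL1RN occupies IL1R1 without signalling, IL1R2 binds IL-1 without passing a signal on, and IL-18 uses a receptor of its own. In skin, IL-33 is known as a signal from epithelium to mast cells and group 2 innate lymphoid cells, and IL-1β as a product of myeloid cells that must be cut by a protease before it is active.

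YAP has no DNA-binding domain of its own and reaches its targets through TEAD factors, and genes of this family are known to be driven by NF-κB and AP-1, so the letters of these 3 motifs were looked for in the 250 bases before each start site in RefSeq (build GRCm38.p6). The 5 windows that follow are shown because *Il33* and *Il1b* had the largest fold changes of the set and *Il1rl1* encodes the IL-33 receptor. Each reads 5′ to 3′ on the strand of its gene, in lower case, and the capitals mark the TEAD letters GGAATG or, where they lie on the other strand, CATTCC.
Il33, upstream start, chr19:29924863-29925112, + strand: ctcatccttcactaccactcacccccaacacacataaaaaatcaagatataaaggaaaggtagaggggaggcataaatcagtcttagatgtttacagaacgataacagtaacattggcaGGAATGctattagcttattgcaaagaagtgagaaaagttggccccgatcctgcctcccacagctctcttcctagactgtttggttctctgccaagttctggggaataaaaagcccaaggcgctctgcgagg
Il33, downstream start, chr19:29945540-29945789, + strand: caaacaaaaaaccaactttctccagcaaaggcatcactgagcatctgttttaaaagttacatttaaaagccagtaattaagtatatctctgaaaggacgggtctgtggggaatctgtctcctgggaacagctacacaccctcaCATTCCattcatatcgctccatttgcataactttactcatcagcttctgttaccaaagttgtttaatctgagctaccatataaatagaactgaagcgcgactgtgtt
Il1rl1, upstream start, chr1:40429320-40429569, + strand: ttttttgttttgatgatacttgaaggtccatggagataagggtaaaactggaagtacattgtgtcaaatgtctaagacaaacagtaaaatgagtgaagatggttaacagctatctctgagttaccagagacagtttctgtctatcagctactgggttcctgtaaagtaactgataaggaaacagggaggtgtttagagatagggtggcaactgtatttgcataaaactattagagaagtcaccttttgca
Il1rl1, downstream start, chr1:40439379-40439628, + strand: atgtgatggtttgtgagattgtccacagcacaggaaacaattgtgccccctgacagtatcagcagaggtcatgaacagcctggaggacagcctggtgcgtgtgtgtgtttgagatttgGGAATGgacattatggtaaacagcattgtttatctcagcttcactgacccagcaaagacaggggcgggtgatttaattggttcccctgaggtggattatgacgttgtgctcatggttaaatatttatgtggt
Il1b, chr2:129371140-129371389, - strand: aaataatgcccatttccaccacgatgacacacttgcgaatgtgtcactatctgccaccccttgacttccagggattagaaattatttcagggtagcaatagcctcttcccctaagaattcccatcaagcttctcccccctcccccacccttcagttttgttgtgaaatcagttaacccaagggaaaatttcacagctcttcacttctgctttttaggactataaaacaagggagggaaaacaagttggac
The upstream *Il33* window held GGAATG at -131 to -126, counted back from the base before the start, and the downstream one held CATTCC at -107 to -102. The downstream *Il1rl1* window held GGAATG at -132 to -127, and the upstream *Il1rl1* window and the *Il1b* window held none of the 3 motifs. RefSeq gave 14 windows for the 9 genes, since several genes have more than 1 start. GGAATG on either strand was found in 5 of the 14, belonging to *Il33*, *Il1rl1*, *Il1rn* and *Il1r1*, and in 12.6% of the 32851 windows of the same length in the whole table. The AP-1 letters TGANTCA were found in 2 windows, of *Il1a* and *Il1rn* (6.75% of all windows), and the NF-κB consensus, on either strand, in 1, of *Il1r1* (7.25% of all windows), where it overlaps a GGAATG. Of the 12 other family genes 10 had a window, and 1 of their 13 windows held GGAATG, 1 held TGANTCA and 0 held the NF-κB consensus. A match is a stretch of letters and not a measured binding site.

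All 9 genes had a log2 fold change above 0 in TG skin, with a median of 0.59 against -0.01 over all genes tested. *Il33* and *Il1rl1*, a ligand and its receptor, passed a false discovery rate (FDR) of 0.05 when edgeR's quasi-likelihood test was adjusted over all genes, by which 1.44% of all genes were called higher. Every TG library lay above every WT library for 7 of the 9 (15.5% of all genes), the exceptions being *Il1rn* and *Il1r1*. The study used edgeR's likelihood-ratio test and, for its more conservative list, voom. The likelihood-ratio test called 5 of the 9 higher (5.52% of all genes), and voom called 2 (249 of the 15102 genes). Since the contrast chose the genes, nothing is read from these shares.

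**Figure D1:**
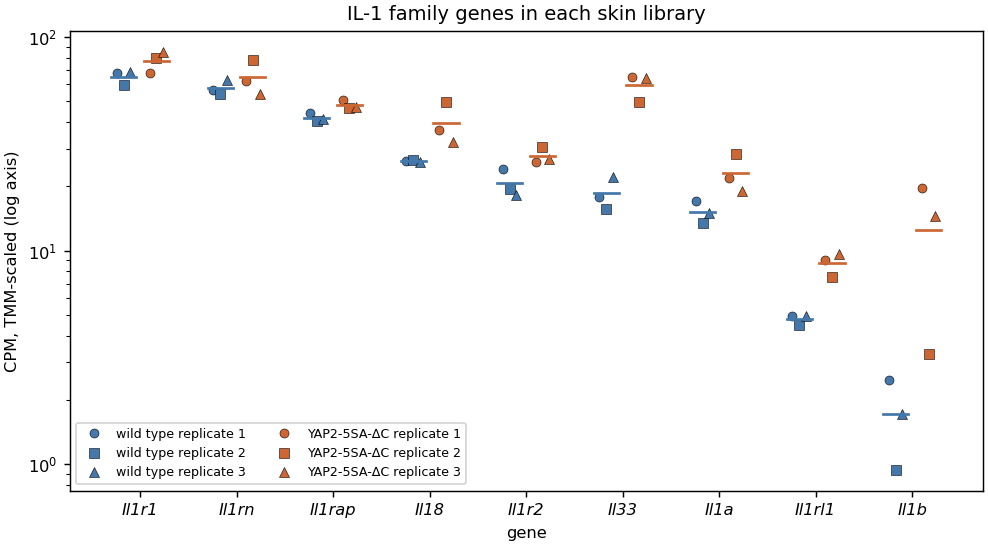
Level of the 9 genes in each library in CPM (log axis), with WT in blue and TG in orange, 1 point per mouse and the group mean as a bar. For *Il33* the 3 TG libraries sit between 49.8 and 64.9 CPM, above the WT libraries at 15.7 to 21.98, whereas the points of *Il1rn* and *Il1r1* overlap.

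*Il33* (ENSMUSG00000024810, GRCm38 chr19:29925114-29960718) encodes the alarmin IL-33. Its level was 17.8, 15.7 and 21.98 CPM in WT replicates 1 to 3 and 64.9, 49.8 and 63.9 CPM in TG replicates 1 to 3. The gap between the groups was wider than the spread within either. The group means were 18.5 ± 3.19 and 59.5 ± 8.45 CPM (SD, n = 3 each), a ratio of 3.22. The log2 fold change was 1.69 ± 0.15 (SE) with an FDR of 0.0194 by edgeR's quasi-likelihood test, and the gene stood at place 8 of all genes tested when ranked by p-value. The fold change kept its size when any 1 library was left out, at 1.58 to 1.84 on the log2 scale. The FDR rose to 0.0906 without TG replicate 3, 0.112 without WT replicate 2 and 0.0512 without WT replicate 3 in edgeR's quasi-likelihood test.

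*Il1rl1* (ENSMUSG00000026069, chr1:40429570-40465415) encodes ST2, the receptor that IL-33 binds. Its level was 4.95, 4.50 and 4.95 CPM in WT and 9.07, 7.53 and 9.61 CPM in TG skin. The 3 WT libraries were nearly equal and all TG libraries lay above them. The means were 4.80 ± 0.258 and 8.74 ± 1.08 CPM, a ratio of 1.82, with a log2 fold change of 0.87 ± 0.13 and an FDR of 0.0398 (quasi-likelihood test). Leaving out WT replicate 1, 2 or 3 or TG replicate 1 or 3 ended the call, with FDR values of 0.0640, 0.178, 0.135, 0.0677 and 0.0906 in that order, and without TG replicate 2 the FDR was 0.0139. The counts are per gene and do not separate the membrane-bound from the soluble form of ST2, which acts as a decoy.

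*Il1b* (ENSMUSG00000027398, chr2:129364570-129371139) encodes IL-1β. Its level was 2.47, 0.942 and 1.71 CPM in WT and 19.7, 3.29 and 14.5 CPM in TG skin. TG replicate 2 lay close to the highest WT library, at 19.3% of the mean of the other two TG libraries. The log2 fold change was the largest of the set and had the largest standard error, 2.87 ± 0.67, with a ratio of means of 7.32 and an FDR of 0.0635 (quasi-likelihood test). The tools differed widely on this gene, with an FDR of 1.61e-06 by the likelihood-ratio test, 0.00542 by DESeq2 and 0.172 by voom. Without TG replicate 2 the log2 fold change was 3.34 and the FDR 0.00851, and without any other library they were 2.40 to 3.30 and 0.0968 to 0.210. The antisense gene *Il1bos* overlaps *Il1b* and had 27, 10 and 0 counts in WT and 21, 11 and 20 in TG libraries, against 45, 18 and 18 and 354, 56 and 233 for *Il1b*. In WT replicates 1 and 2 the antisense counts were thus of the same order as those of *Il1b*. The strand setting of the counting is not given in the sources used here.

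*Il1a* (ENSMUSG00000027399, chr2:129299610-129309972) encodes IL-1α, which keratinocytes make in the resting state and which is active without being cut. Its level was 17.1, 13.4 and 15.03 CPM in WT and 21.9, 28.4 and 19.0 CPM in TG skin. The groups did not overlap, but the lowest TG library was near the highest WT library. The log2 fold change was 0.61 ± 0.16 with an FDR of 0.0810 by the quasi-likelihood test and 0.0201 by the likelihood-ratio test. *Il18* (chr9:50554827-50581840) encodes IL-18, a cytokine that epithelial cells hold as a precursor. Its level was 26.3, 26.6 and 25.9 CPM in WT and 36.8, 49.8 and 32.2 CPM in TG skin. WT libraries were almost identical, and the TG libraries were spread above them. The log2 fold change was 0.59 ± 0.15, with an FDR of 0.0745 by the quasi-likelihood test and 0.0176 by the likelihood-ratio test. Without TG replicate 2, in which *Il18* was highest, its log2 fold change was 0.41 and its FDR 0.0392, and without any other library the FDR was 0.0906 to 0.214 (quasi-likelihood test).

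The inhibitors and the other receptor chains had smaller differences. *Il1rn*, the receptor antagonist, stood at 56.5, 54.0 and 62.9 CPM in WT and 62.2, 78.3 and 53.8 CPM in TG skin. The groups overlapped, with TG replicate 3 just below all WT libraries and TG replicate 2 above all of them (log2 fold change 0.16 ± 0.14, FDR 0.483). *Il1r2*, the decoy receptor, stood at 24.2, 19.5 and 18.2 CPM in WT and 26.0, 30.5 and 26.9 CPM in TG skin. The groups were separated by a narrow gap (log2 fold change 0.43 ± 0.12, FDR 0.0905). *Il1r1*, the signalling receptor of IL-1, stood at 67.4, 59.3 and 68.1 CPM in WT and 67.9, 79.4 and 84.8 CPM in TG skin, and TG replicate 1 fell among the WT libraries (log2 fold change 0.25 ± 0.10, FDR 0.164). *Il1rap*, the shared accessory chain, stood at 43.9, 40.6 and 41.1 CPM in WT and 50.8, 46.4 and 47.2 CPM in TG skin. Its groups did not overlap, yet its difference was small, with a log2 fold change of 0.20 ± 0.07 and an FDR of 0.118. All FDR values of this paragraph are from the quasi-likelihood test.

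Levels of different genes were compared per length, as CPM per kilobase of merged exons (FPKM). In WT skin *Il18* was highest at 25.5 ± 0.344 FPKM, followed by *Il1r2* at 10.8, *Il1rn* at 10.4 and *Il1r1* at 10.2, which overlapped as neighbours in this order. *Il1a* (7.69 ± 0.939 FPKM) and *Il33* (6.41 ± 1.11 FPKM) came next and overlapped each other. *Il1rap* was at 3.69 FPKM, and *Il1b* (0.896 ± 0.402) and *Il1rl1* (0.696 ± 0.0374) were lowest and overlapped. In TG skin *Il33* stood at 20.6 ± 2.93 FPKM, second only to *Il18* at 38.4 ± 8.83, and its libraries no longer overlapped those of *Il1a* at 11.7 ± 2.42 FPKM. *Il1rl1* remained the lowest of the 9 at 1.27 ± 0.156 FPKM. The order in the middle of the list depends on the length used, and with the longest transcript *Il1rn* came second in both genotypes, at 22.6 FPKM in WT and 25.4 FPKM in TG skin, with *Il33* just below it in TG skin at 23.4 FPKM.

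The ratio of antagonist to agonist within a library, *Il1rn* over *Il1a* plus *Il1b* in FPKM, was 1.03, 1.34 and 1.33 in WT and 0.525, 0.879 and 0.563 in TG skin. The antagonist transcript was thus above the summed agonist transcripts in all 3 WT libraries and below them in all 3 TG libraries, and the groups did not overlap. With the length of the longest transcript the WT mean was 2.57, the TG libraries stood at 0.951, 1.83 and 1.03, and the groups still did not overlap, so the size of the ratio, and on which side of 1 a library falls, depends on the length. The ratio of decoy to signalling receptor, *Il1r2* over *Il1r1*, was 1.06 ± 0.156 in WT and 1.21 ± 0.128 in TG skin, and that of *Il1rap* over *Il1r1* plus *Il1rl1* was 0.339 ± 0.021 and 0.319 ± 0.0481. Both of these overlapped between the genotypes. These are ratios of transcripts, and protein was not measured here.

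The rest of the IL-1 family was taken whole, as 12 further genes of which 10 passed the filter. Of these, 4 were called higher and 1 lower in TG skin, against 1.44% and 0.464% of all genes. Their median log2 fold change was 0.70. The IL-36 cytokines, epidermal alarmins that signal through IL1RL2 and IL1RAP, appear in GENCODE as *Il1f6* (*Il36a*), *Il1f8* (*Il36b*) and *Il1f9* (*Il36g*). *Il36a* stood at 9.45, 8.01 and 11.3 CPM in WT and 19.9, 26.4 and 18.8 CPM in TG skin, and rose with a log2 fold change of 1.18 ± 0.18 (FDR 0.0398, quasi-likelihood test). *Il36b* stood at 17.3, 16.6 and 17.1 CPM in WT and 28.4, 35.7 and 27.8 CPM in TG skin, and rose by 0.85 ± 0.11 on the log2 scale (FDR 0.0332, quasi-likelihood test). For both, TG replicate 2 was the highest library, the opposite of *Il33*, *Il1rl1* and *Il1b*, for which it was the lowest TG library.

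*Il36g* (log2 fold change 0.95 ± 0.18, FDR 0.0520), the IL-36 receptor *Il1rl2* (0.56 ± 0.10, FDR 0.0505) and the IL-36 receptor antagonist *Il36rn*, named *Il1f5* in GENCODE (0.48 ± 0.14, FDR 0.0961), did not pass. Every TG library lay above every WT library for all 3, as for 15.5% of all genes. Both chains of the IL-18 receptor were called. *Il18r1*, the binding chain, stood at 1.32, 1.41 and 2.19 CPM in WT and 3.78, 5.71 and 8.30 CPM in TG skin (log2 fold change 1.89 ± 0.34, FDR 0.0467). *Il18rap*, its accessory chain, stood at 1.43, 1.47 and 2.00 CPM in WT and 5.23, 4.12 and 3.87 CPM in TG skin (1.46 ± 0.20, FDR 0.0375). Both were low in WT skin and neither group overlapped the other. *Il38*, named *Il1f10* in GENCODE and encoding a cytokine described as an antagonist, was the 1 gene that fell, from 7.64, 8.37 and 8.47 CPM in WT to 4.0, 2.47 and 3.87 CPM in TG skin (log2 fold change -1.24 ± 0.19, FDR 0.0401). The soluble IL-18 inhibitor *Il18bp* (0.13 ± 0.14, FDR 0.572) and the inhibitory receptor *Sigirr* (0.39 ± 0.26, FDR 0.378) overlapped between the genotypes. *Il1rapl1* and *Il1rapl2*, with 20 and 1 counts in all, were not tested. The FDR values are from the quasi-likelihood test. Each of these 5 calls was lost without WT replicate 1, 2 or 3 or TG replicate 3, with FDR values of 0.0534 to 0.190, and those of *Il36a*, *Il38* and *Il18rap* also without TG replicate 1 (0.0642 to 0.0677).

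**Figure D2:**
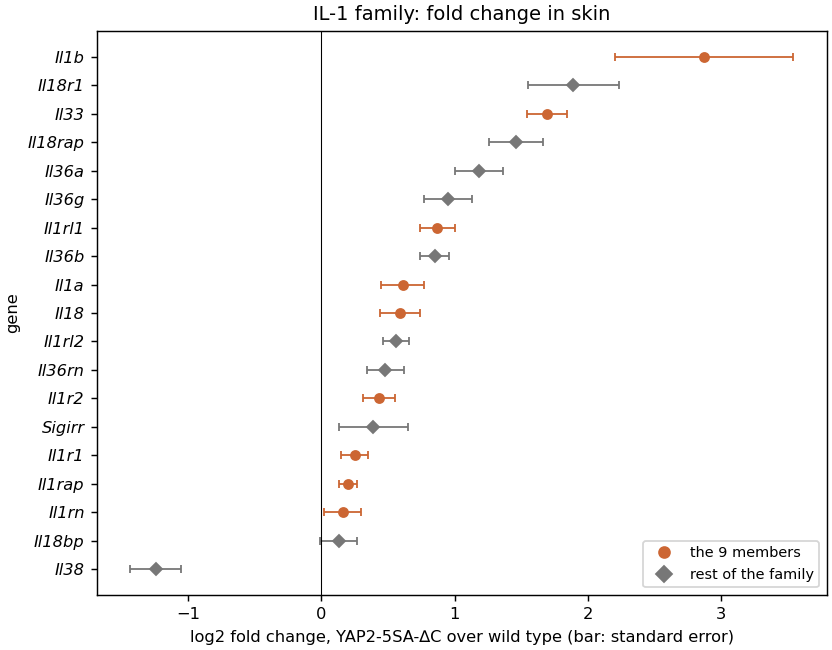
Log2 fold change of TG over WT (x axis) for the 19 tested genes of the family, with the standard error as a bar, the 9 chosen genes in orange and the rest of the family in grey. *Il38* at -1.24 is the one gene below 0, and *Il1b* at 2.87 has the widest error.

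Several of these genes lie next to each other in the genome. On chromosome 1, *Il1r2*, *Il1r1*, *Il1rl2*, *Il1rl1*, *Il18r1* and *Il18rap* follow in this order within the interval 40074079 to 40551705 (GRCm38), with log2 fold changes of 0.43, 0.25, 0.56, 0.87, 1.89 and 1.46. The differences were thus larger at the *Il18r1* and *Il18rap* end. On chromosome 2, *Il36b*, *Il36g*, *Il36a*, *Il36rn*, *Il38* and *Il1rn* lie within 24153161 to 24351494. The neighbours *Il36rn* and *Il38* had log2 fold changes of 0.48 and -1.24, and so neighbouring genes of the ligand cluster differed in direction.

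**Figure D3:**
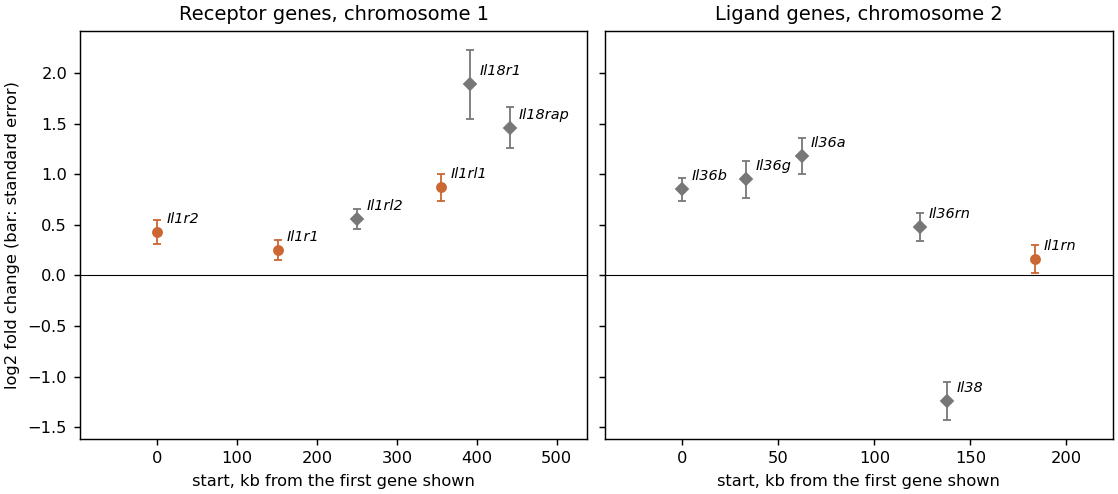
Log2 fold change of TG over WT (y axis, bar: standard error) against the distance of each gene's start from the first gene of its cluster in kilobases (x axis), for the receptor genes of chromosome 1 on the left and the ligand genes of chromosome 2 on the right. Orange marks the chosen genes and grey the rest of the family, and *Il38* is the one gene drawn below 0.

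The genes that carry the signal from the IL-1 and IL-33 receptors gave no call. Of 19 tested, 0 were called higher or lower by the quasi-likelihood test, 10 had an unadjusted p below 0.05 (3968 of the 15102 genes tested in all), and the median log2 fold change was 0.24. The likelihood-ratio test called 1, DESeq2 called 2 and voom called 0, where they called 1568, 1590 and 249 of all 15102 genes. *Nfkbiz*, an IκB protein of the nucleus that is induced by IL-1, had the lowest p-value, at 44.9, 42.6 and 42.6 CPM in WT and 52.9, 57.2 and 64.7 CPM in TG skin (log2 fold change 0.43 ± 0.08, FDR 0.0530). The adaptor *Myd88* (0.33 ± 0.08, FDR 0.0657), the inhibitory kinase *Irak3* (0.44 ± 0.13, FDR 0.0886) and *Tnfaip3*, which encodes the NF-κB inhibitor A20 (0.39 ± 0.12, FDR 0.106), followed by the same test.

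Of 16 tested genes for processing and release of these cytokines, 3 were called higher and 0 lower (1.44% and 0.464% of all genes), with a median log2 fold change of 0.39. *Ctss*, encoding the lysosomal protease cathepsin S, stood at 41.2, 40.6 and 40.0 CPM in WT and 75.8, 68.2 and 74.5 CPM in TG skin, and rose by 0.84 ± 0.06 on the log2 scale (FDR 0.0101, quasi-likelihood test). *Casp4*, encoding the inflammatory caspase-11, stood at 6.21, 5.29 and 5.14 CPM in WT and 9.51, 13.8 and 10.2 CPM in TG skin (1.01 ± 0.17, FDR 0.0437, quasi-likelihood test). *Cma1*, encoding mast cell chymase, stood at 33.5, 31.0 and 34.4 CPM in WT and 42.4, 55.3 and 51.6 CPM in TG skin (0.59 ± 0.11, FDR 0.0467, quasi-likelihood test). All 3 had TG libraries that stayed above the WT libraries, as 15.5% of all genes did. *Casp8* followed with 0.34 ± 0.06 and an FDR of 0.0505 (quasi-likelihood test). *Casp1*, encoding the caspase that cuts IL-1β and IL-18, stood at 11.7 to 15.6 CPM in WT and 14.5 to 16.7 CPM in TG skin, with overlap (this gene was added after its values were seen). *Elane*, a neutrophil protease gene, had 6 counts in all 6 libraries together.

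Of 14 tested genes known to be induced by IL-1 or IL-33, 3 were called higher and 0 lower (1.44% and 0.464% of all genes). *Mmp13* and *Cxcl2*, 2 of the 14, were below 1 CPM in every WT library and passed the filter only through the TG libraries, so they had to differ and their calls and fold changes are no support for the list. *Mmp13*, encoding a collagenase, stood at 0.495, 0.628 and 0.856 CPM in WT and 5.67, 2.47 and 7.99 CPM in TG skin (log2 fold change 3.06 ± 0.48, FDR 0.0414, quasi-likelihood test). *Ptgs2*, encoding the cyclooxygenase COX-2, stood at 3.63, 2.67 and 2.19 CPM in WT and 16.4, 7.12 and 13.04 CPM in TG skin (2.09 ± 0.33, FDR 0.0419, quasi-likelihood test). In both, as in *Il1b*, TG replicate 2 was the lowest TG library. For *Ptgs2* it still lay above WT, whereas for *Mmp13* the filter had fixed this. *Il13ra2*, encoding the decoy receptor of IL-13, stood at 1.59, 1.20 and 1.43 CPM in WT and 2.84, 3.77 and 5.24 CPM in TG skin (1.48 ± 0.27, FDR 0.0468, quasi-likelihood test). *Mmp3* followed with 0.88 ± 0.17 and an FDR of 0.0529 (quasi-likelihood test). Among products of group 2 lymphoid cells, *Areg*, encoding the growth factor amphiregulin and added after its values were seen, stood at 5.72 to 6.47 CPM in WT and 4.29 to 6.49 CPM in TG skin, the one tested gene of this list below 0 (log2 fold change -0.25 ± 0.17, FDR 0.398, quasi-likelihood test). The type 2 interleukins were barely covered. *Il5* had 0 counts in the 3 WT libraries and 0, 2 and 1 in the TG libraries, where 3 counts are worth 0.157 to 0.285 CPM, so a difference was not detectable at this depth. *Il13* and *Il4*, added after their values were seen, had 10 and 25 counts over all 6 libraries, and *Csf3* had 9.

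Without WT replicate 2, WT replicate 3 or TG replicate 3, 0 genes of the whole table were called by the quasi-likelihood test, so each call by this test named here is lost when any 1 of these 3 libraries is left out, and the other tests were not run without a library. In those 3 fits 2725, 2844 and 3692 genes had an unadjusted p below 0.05.

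The genes whose pattern over the 6 libraries was nearest to that of a member were named by the root mean square difference of centred log2 CPM among protein-coding genes, as a description. For *Il33* they were *Timp1*, an inhibitor of metalloproteinases (0.195), *Tcf23* (0.208), *P4ha3* (0.216) and *Il18rap* (0.220). *Tcf23* and *P4ha3* were below 1 CPM in every WT library and passed the filter only through the TG libraries, so they had to be higher in TG skin. *Timp1* stood at 4.56, 3.98 and 5.80 CPM in WT and 13.7, 9.06 and 14.4 CPM in TG skin, so that, like *Il33*, it was highest in replicate 3 within WT and lowest in replicate 2 within both genotypes. For *Il1rl1* the nearest were *Igsf6* (0.0778), *Ctss* (0.0789), *Ms4a6c* (0.0809) and *Lst1* (0.0811). For *Il1b* the nearest were *Cxcl2* (0.320), *Ptgs2* (0.603), *2610528A11Rik* (0.619) and *Gsta4* (0.625). *Cxcl2*, encoding a chemokine that draws neutrophils, was at 0.550, 0.0523 and 0.285 CPM in WT and 4.39, 1.06 and 3.43 CPM in TG skin, and is itself on the list of IL-1 induced genes (log2 fold change 3.30 ± 0.74, FDR 0.0619, quasi-likelihood test). That fold change rests on 10, 1 and 3 counts in WT and was 4.35 without WT replicate 1 and 2.72 without WT replicate 2. The genes nearest to *Il1b* were much farther from it than those nearest to *Il1rl1* were from *Il1rl1*. The difference is not scaled and can grow with the size and spread of a change. Both were larger for *Il1b* (log2 fold change 2.87 ± 0.67) than for *Il1rl1* (0.87 ± 0.13), so the distances of the 2 genes are not comparable.

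Total counts ranged from 11225705 to 19505036 per library, with the least in WT replicate 3. *Yap1* stood at 125 to 142 CPM in WT and 129.6 to 144 CPM in TG skin (log2 fold change 0.06 ± 0.07, FDR 0.635, quasi-likelihood test), and whether transcripts of the transgene align to this gene is not given in the sources used here, so it does not check the labels. *Krt14*, a marker of the basal keratinocytes in which the transgene acts, was at 1629 to 1668 CPM in WT and 2845 to 3407 CPM in TG skin. TG replicate 2 stood apart in hair genes. The summed level of 8 hair shaft and inner root sheath genes was 11364 to 13986 CPM in WT, 5996 and 7697 CPM in TG replicates 1 and 3 and 1251 CPM in TG replicate 2. By the quasi-likelihood test 0 of these 8 were called and 7 had an unadjusted p below 0.05 (3968 of the 15102 genes in all), and the likelihood-ratio test called 7 lower (735 of 15102). The lowest p-values among them were those of *Krt73* (log2 fold change -1.32 ± 0.50, FDR 0.153) and *Krt25* (-1.42 ± 0.54, FDR 0.155), keratins of the inner root sheath (quasi-likelihood test). The part of these hair genes in the members' values was not tested. Without TG replicate 2, 4 of the 9 members were called (*Il33*, *Il1rl1*, *Il1b* and *Il18*), as were 816 genes in all.

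The members differed in where TG replicate 2 lay among the TG libraries. *Il33*, *Il1rl1*, *Il1b* and *Il1rap* were lowest in TG replicate 2, and *Il1a*, *Il1rn*, *Il1r2* and *Il18* were highest there, whereas for *Il1r1* it lay in the middle. For *Il1rap* the lowest place rests on 46.4 against 47.2 CPM. These are 44.4% of the members each way, and over all genes tested 36.3% were highest and 37.1% lowest in that library, so the split of the members is near that of all genes. All 7 basal and all 7 suprabasal keratinocyte genes tested were highest in TG replicate 2, whose summed level of suprabasal genes was 11757 CPM against 6707 and 7403 CPM in the other TG libraries and 5193 to 6248 CPM in WT. Of the 7 basal genes 1 was called higher, where 1.44% of all genes were (*Krt14*, log2 fold change 0.95 ± 0.11, FDR 0.0300), with *Itga6* next (0.57 ± 0.13, FDR 0.0615), and their summed level was 3593 to 4358 CPM in WT and 5903 to 7540.4 CPM in TG skin. Of the 7 suprabasal genes 0 were called by the quasi-likelihood test and 3 had an unadjusted p below 0.05 (3968 of the 15102 genes in all). The likelihood-ratio test called 2 of the 7 higher (5.52% of all genes). The lowest p-values by the quasi-likelihood test were those of *Krtdap* (0.85 ± 0.18) and *Krt1* (0.72 ± 0.21). Of the 7 stress keratinocyte genes 4 were lowest and 0 highest in TG replicate 2 among TG libraries, and their summed level was 261 to 420.3 CPM in WT, 878 CPM in TG replicate 2 and 1462 and 1662 CPM in the other TG libraries. In this list 3 were called higher (1.44% of all genes), led by *Sprr1b* (1.90 ± 0.18, FDR 0.0194) and *Krt16* (2.24 ± 0.27, FDR 0.0300). The part of these cell states in the members' levels was not tested. FDR values of this paragraph are from the quasi-likelihood test.

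**Figure D4:**
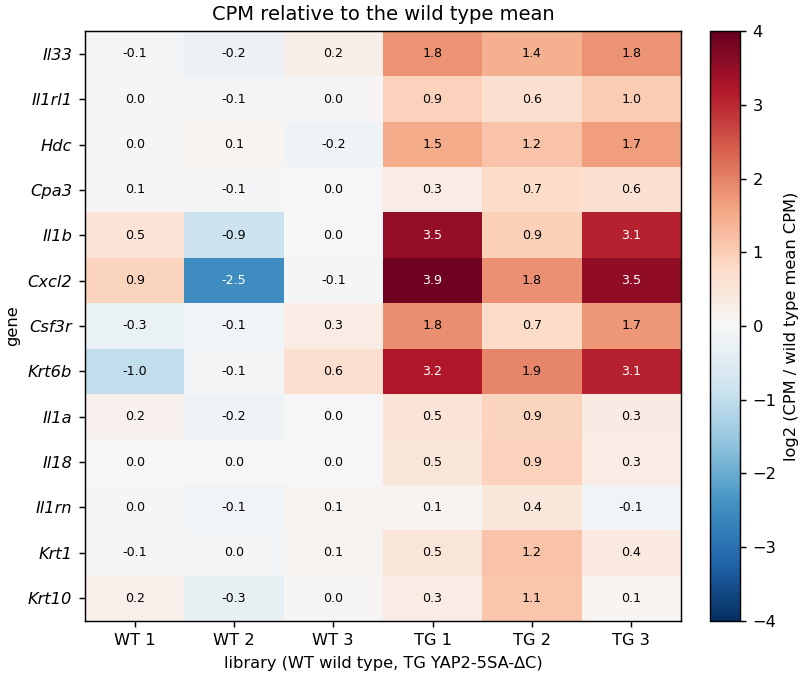
Log2 of CPM over the WT mean (colour and printed value) for members and marker genes (rows) in the 6 libraries (columns), where markers not covered by the rule for naming genes were picked after their values were seen. In TG 2, *Il33*, *Il1rl1*, *Hdc*, *Il1b*, *Cxcl2*, *Csf3r* and *Krt6b* are below TG 1 and TG 3, and *Cpa3*, *Il1a*, *Il18*, *Il1rn*, *Krt1* and *Krt10* are above them.

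Markers of cells that respond to these cytokines were measured in the same libraries. Of 8 tested mast cell genes, which mark a cell type with high ST2, 2 were called higher (1.44% of all genes). *Hdc*, encoding the enzyme that makes histamine, stood at 4.89, 5.13 and 4.28 CPM in WT and 13.4, 10.6 and 15.2 CPM in TG skin (log2 fold change 1.45 ± 0.16, FDR 0.0300, quasi-likelihood test), and the other was *Cma1*. Of the 8 tested, 6 were highest and 2 lowest in TG replicate 2 among TG libraries (36.3% and 37.1% of all genes). *Hdc* and *Il1rl1* were lowest in that library, and *Cma1* was highest. The ratio of TG to WT means was 2.75 for *Hdc* and 1.51 for *Cma1*. The summed level of the 10 mast cell genes was 166 to 188 CPM in WT and 221 to 274 CPM in TG skin. *Kit*, the receptor that defines these cells and is also made by melanocytes, was added after its values were seen and stood at 29.7 to 34.4 CPM in WT and 24.4 to 30.3 CPM in TG skin, with overlap. The part of mast cell number in the level of *Il1rl1* was not tested.

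Type 2 lymphocyte genes gave 0 calls among 4 tested by the quasi-likelihood test, with 1 unadjusted p below 0.05 (3968 of the 15102 genes in all). The likelihood-ratio test called 1 of these genes higher (5.52% of all genes). Their summed level, 104 to 125 CPM in WT and 121 to 160.3 CPM in TG skin, is nearly all *Gata3* (92.5 to 145 CPM over the 6 libraries), which keratinocytes and hair follicles also express. *Il7r* was at 1.47 to 4.18 CPM in WT and 4.73 to 7.0 CPM in TG skin (log2 fold change 1.02 ± 0.36, FDR 0.137), while the defining genes *Il5* and *Klrg1* had 3 and 8 counts in all. T cell genes gave 0 calls among 4 by the quasi-likelihood and by the likelihood-ratio test, with 0 unadjusted p below 0.05 (*Cd4*, 0.47 ± 0.21, and *Cd3e*, 0.61 ± 0.29), and a summed level of 10.4 to 11.9 CPM in WT and 12.8 to 16.9 CPM in TG skin.

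Some myeloid markers were called higher in TG skin, where 1.44% of all genes were. Of 10 macrophage genes 2 were called higher, *Mrc1* (0.54 ± 0.07, FDR 0.0341) and *Csf1r* (0.54 ± 0.09, FDR 0.0456), with a summed level of 569 to 690 CPM in WT and 808 to 899.9 CPM in TG skin. *Mertk* of the same list, added after its values were seen, had TG libraries at 26.6 to 32.9 CPM, below WT at 33.4 to 34.6 CPM (log2 fold change -0.16 ± 0.09, FDR 0.291). Of 9 tested dendritic and Langerhans cell genes 3 were called higher, among them *Itgax* (0.82 ± 0.13, FDR 0.0401) and the antigen-presenting gene *H2-Aa* (0.63 ± 0.10, FDR 0.0420), with a summed level of 265 to 337 CPM in WT and 415 to 502 CPM in TG skin. In this list 8 genes had a log2 fold change above 0 and 1 below. Of 4 tested neutrophil genes 1 was called, the receptor gene *Cxcr2* (1.05 ± 0.16, FDR 0.0401), followed by *Csf3r* (1.53 ± 0.31, FDR 0.0530), with a summed level of 16.5 to 52.3 CPM in WT and 37.1 to 85.2 CPM in TG skin that overlapped. *Csf3r* stood at 3.35 to 4.95 CPM in WT and at 14.5, 6.71 and 13.4 CPM in TG skin, lowest in TG replicate 2 as *Il1b* was. The granule genes *Elane* and *Ngp*, made in immature neutrophils, had 6 and 1 counts in all. Fibroblast and endothelial genes gave 0 calls among 6 tested each by the quasi-likelihood and the likelihood-ratio test. By the quasi-likelihood test 3 and 2 of them had an unadjusted p below 0.05 (3968 of the 15102 genes in all). Lowest p-values in these lists were those of *Lum* (0.29 ± 0.09) and *Dcn* (0.25 ± 0.10), and of *Pecam1* (0.32 ± 0.10) and *Vwf* (0.34 ± 0.14). Their summed levels were 9449 to 12801 CPM in WT and 12256 to 15936 CPM in TG skin for fibroblast genes, with overlap, and 116 to 131 and 135 to 161 CPM for endothelial genes. The part of myeloid cell number in the levels of *Il1b*, *Il18r1* and *Il18rap* was not tested.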

How the data were processed

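RNA-Seq was performed on skin of 3 WT and 3 TG mice. The authors deposited raw counts of uniquely mapped reads per Ensembl gene, made with HTSeq-count after TopHat2 (2.0.12 in the submitters' processing notes) and Bowtie2 (2.1.0) on GRCm38. Neither the release of the annotation nor the strand option of HTSeq-count is given in the sources used here, so counts of overlapping and antisense genes are uncertain. GENCODE M21 named all but 558 of 26579 genes.

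Genes reaching 1 CPM in 3 or more libraries were kept, and counts and CPM were scaled with TMM. Genotype was tested with glmQLFit and glmQLFTest of edgeR 4.0.16 (R 4.3.3), with Benjamini-Hochberg adjustment over 15102 genes. The likelihood-ratio test and voom (limma 3.58.1), both from the study's methods, were alternatives. Further alternatives were DESeq2 1.42.0, other scalings and filters, a fit with the replicate number as a block and fits without each library in turn. Code was tested on simulated data.

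The members and lists were chosen with earlier results of these data known. Named genes were the whole family, the 4 tested genes of lowest p in each pathway list and the 2 in each cell type list, genes of a list under 10 counts in all, the 4 nearest patterns and *Yap1*. Pathway genes are background knowledge. Nearest patterns used log2 CPM with a prior count of 2. Total counts of 11225705 to 19505036 set the precision of low genes. *Ly6g*, *Trdc* and *Flg* were not analysed here.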

Additional observations from a re-analysis of the deposited data

How the results depend on the processing

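All 126 values of the 9 members under the 14 alternatives kept a log2 fold change above 0. Calls were less stable. Genes called, 288 as reported, numbered 1590 with DESeq2, 1568 with the likelihood-ratio test, 497 with no low-count filter and 0 to 816 when a library was left out. The highest came without TG replicate 2 and the 0 without WT replicate 2, WT replicate 3 or TG replicate 3. Members called (2) numbered 6 with DESeq2, 5 with the likelihood-ratio test and 0 to 4 when a library was left out. Other family genes called (5) numbered 8 with DESeq2 and 0 to 7 when a library was left out. Signalling genes called (0) numbered 2 with DESeq2, and 1 with the likelihood-ratio test, no filter or upper-quartile factors, and 0 to 1 when a library was left out. Processing genes called (3) numbered 9 with DESeq2, 7 with the likelihood-ratio test, 5 with upper-quartile factors, 1 with voom and 0 to 5 when a library was left out. Induced genes called (3) numbered 8 with DESeq2 and with the likelihood-ratio test, 6 with no filter, 1 with voom and 0 to 4 when a library was left out. The cause of these shifts was not tested. With the longest transcript as length, the WT mean of *Il1rn* over *Il1a* plus *Il1b* was 2.57, of *Il1r2* over *Il1r1* 1.30 and of *Il1rap* over *Il1r1* plus *Il1rl1* 0.770.

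Deviations of samples with the same replicate number were not positively correlated (-0.332, -0.228 and -0.0501). Deviations centred on 3 libraries per group cannot show whether such samples share a litter or a batch. The labels give only the number. With the replicate block, 0 genes were called by the quasi-likelihood test (2949 with an unadjusted p below 0.05), hence 0 members (*Il33* FDR 0.0740, *Il1rl1* 0.162), 0 other family genes, 0 processing and 0 induced genes. Depth limited genes such as *Il5*, for which 3 counts are 0.157 to 0.285 CPM.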
